A study of Mus musculus with 7 samples.

Results

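Accessible chromatin was examined around Rag1, Rag2 and Dntt, the genes for the enzymes that cut and extend antigen receptor gene segments, in mouse B-cell progenitors profiled by ATAC-seq, with 7 libraries in all. The assay recovers DNA from accessible chromatin, and peaks mark places where the recovered fragments stack higher than the library's background. Peaks were taken from the 7 deposited lists where they overlapped Rag1 or Rag2 extended by 120 kb on each side (chr2:101504718-101769501, mm10) or Dntt extended by 30 kb on each side (chr19:40999275-41089525). This gave 353 of 647973 peaks, 229 in the Rag window and 124 in the Dntt window. Overlapping peaks of different libraries were merged, which left 48 regions in the Rag window and 20 in the Dntt window, 68 of 145247 in the genome. In what follows, regions are named by the distance of their highest summit from the Rag2 or the Dntt transcription start site.

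RAG1 and RAG2 together form the recombinase that cuts DNA at recombination signals beside the V, D and J segments of immunoglobulin and T-cell receptor genes. Dntt encodes terminal deoxynucleotidyl transferase, which adds nucleotides without a template at the cut ends and so widens the variety of receptors. Rag2 is transcribed towards Rag1, the genes lie tail to tail, and their transcription in B-cell progenitors depends on distal elements, among them Erag, an enhancer known to lie upstream of Rag2.

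Cells were sorted from bone marrow of mice aged 6 to 18 weeks of both sexes, according to the methods of the study, and each of the 7 groups had 1 library. The WT pre-proB, proB and preB libraries, from successive stages of B-cell development, came from Ergfl/fl mice without Cre. The Erg KO pre-proB library came from Rag1CreT/+;Ergdelta/delta mice, in which Erg, an ETS-family transcription factor, was deleted by a Cre that is active in lymphoid cells from the common lymphoid progenitor onward. The 3 Rescue libraries, titled pre-proB, proB and preB, came from Rag1CreT/+;Ergdelta/delta;IgHVH10tar mice, which also carried a heavy chain gene that was already rearranged. Rag1Cre was present in every Erg-deficient library and in no WT library, so the deletion and the Cre allele cannot be told apart, which bears on Rag1 in particular. The position of Cre relative to Rag1 is not given in the sources used here.

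Each list held between 76465 and 105649 peaks, and the background pileup worked out from the deposited folds, a stand-in for relative depth, was between 3.49 and 4.60 fragments. The fold of a peak is its summit pileup plus 1 over that background plus 1. Log2 differences were taken after each fold had been divided by the median fold of its library over 46442 regions open in all 7 libraries, between 14.5 and 17.9. Values for WT and Rescue are given in the order pre-proB, proB, preB. Every interval below is a 95% interval. Intervals of folds and of log2 differences cover counting error only. Those of shares treat peaks or regions as independent draws, which neighbours in a window need not be. With 1 library per group no spread between animals could be estimated, and no significance test was run. The source names of the 3 Rescue libraries contradict their titles, and titles were used here. The height of the region 24 kb upstream of Rag2 was 9.83, 53.0 and 52.0 in Rescue by title, beside 13.4, 65.2 and 53.7 in WT. By source name the Rescue series would run 52.0, 9.83 and 53.0. Of 10 B-lineage marker genes, promoter peaks marked 9 in WT pre-proB, 6 in Erg KO, 7 in Rescue pre-proB and 10 in each proB and preB library. All 10 markers of plasmacytoid dendritic cells had a promoter peak in every library except WT preB, which had 9.

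The sequences shown are the promoters of the members and the centres of the elements that the results turn on. Capitals mark 3 motifs found on either strand: ETS (GGAAGT), the family of Erg; the E-box (CANCTG), bound by E proteins such as Tcf3; and EBF (CCCNNGGG), a core bound by Ebf1. The promoters, from RefSeq (GRCm38), run from 250 bases before to 50 bases after the start, in the direction of transcription, and all 3 members were matched.
Rag2 promoter, chr2:101624462-101624761, plus strand: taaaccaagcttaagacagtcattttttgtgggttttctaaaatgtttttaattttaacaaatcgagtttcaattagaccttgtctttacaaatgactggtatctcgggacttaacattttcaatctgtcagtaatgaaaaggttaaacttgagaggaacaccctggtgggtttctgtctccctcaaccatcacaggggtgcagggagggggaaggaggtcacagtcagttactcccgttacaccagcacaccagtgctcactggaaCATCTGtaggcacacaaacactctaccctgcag
Rag1 promoter, chr2:101649483-101649782, minus strand: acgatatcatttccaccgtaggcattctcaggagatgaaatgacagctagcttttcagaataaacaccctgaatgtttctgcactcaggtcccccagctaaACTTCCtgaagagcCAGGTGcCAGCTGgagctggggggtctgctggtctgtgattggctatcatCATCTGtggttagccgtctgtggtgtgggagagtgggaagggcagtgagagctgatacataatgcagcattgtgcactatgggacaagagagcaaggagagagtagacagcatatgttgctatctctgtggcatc
Dntt promoter, chr19:41029025-41029324, plus strand: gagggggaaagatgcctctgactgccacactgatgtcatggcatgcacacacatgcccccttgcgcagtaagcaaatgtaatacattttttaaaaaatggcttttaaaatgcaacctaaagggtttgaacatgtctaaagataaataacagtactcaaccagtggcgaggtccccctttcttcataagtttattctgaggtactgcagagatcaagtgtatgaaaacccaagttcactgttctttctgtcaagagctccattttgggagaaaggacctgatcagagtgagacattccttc
The elements are shown as 200 bases around the summit, plus strand, read from GRCm38. They are the region in the interval where Erag is known to lie, elements of the Rag window that moved with it or against it, and elements of the Dntt window that were highest in pre-proB.
24 kb upstream of Rag2, chr2:101600637-101600836: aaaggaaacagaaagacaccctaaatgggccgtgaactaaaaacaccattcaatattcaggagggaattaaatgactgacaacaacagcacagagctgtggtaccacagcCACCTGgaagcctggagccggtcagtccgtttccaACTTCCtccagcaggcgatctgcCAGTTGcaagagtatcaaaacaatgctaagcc
16.1 kb upstream of Rag2, chr2:101608565-101608764: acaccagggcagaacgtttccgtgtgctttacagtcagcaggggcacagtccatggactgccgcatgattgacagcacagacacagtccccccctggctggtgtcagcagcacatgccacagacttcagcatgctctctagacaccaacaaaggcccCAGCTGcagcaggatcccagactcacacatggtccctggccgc
8.6 kb upstream of Rag2, chr2:101615987-101616186: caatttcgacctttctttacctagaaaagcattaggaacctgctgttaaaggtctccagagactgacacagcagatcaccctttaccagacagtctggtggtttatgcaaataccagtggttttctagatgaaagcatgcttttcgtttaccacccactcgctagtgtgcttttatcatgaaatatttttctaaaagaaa
Rag2 intron 2, chr2:101628960-101629159: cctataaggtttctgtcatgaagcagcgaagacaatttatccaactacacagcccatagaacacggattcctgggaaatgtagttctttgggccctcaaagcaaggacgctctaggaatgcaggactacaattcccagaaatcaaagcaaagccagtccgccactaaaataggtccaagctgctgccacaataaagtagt
16.1 kb upstream of Rag1, chr2:101665474-101665673: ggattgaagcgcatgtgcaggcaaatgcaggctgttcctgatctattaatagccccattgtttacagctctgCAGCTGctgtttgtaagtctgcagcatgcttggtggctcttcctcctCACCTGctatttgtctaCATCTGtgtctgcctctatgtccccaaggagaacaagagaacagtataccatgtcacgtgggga
2.5 kb upstream of Dntt, chr19:41026645-41026844: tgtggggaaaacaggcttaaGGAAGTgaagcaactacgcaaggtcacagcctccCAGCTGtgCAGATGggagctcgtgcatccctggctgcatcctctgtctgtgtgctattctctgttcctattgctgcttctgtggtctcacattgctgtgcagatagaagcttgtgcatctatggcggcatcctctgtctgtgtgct
15 kb upstream of Dntt, chr19:41014146-41014345: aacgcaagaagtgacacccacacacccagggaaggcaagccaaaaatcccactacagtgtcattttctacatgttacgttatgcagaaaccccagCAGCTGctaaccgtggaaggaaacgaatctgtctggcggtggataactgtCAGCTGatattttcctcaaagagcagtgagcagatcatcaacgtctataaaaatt
An ETS match was present in 3 of these 10 sequences, the Rag1 promoter and the elements 24 kb upstream of Rag2 and 2.5 kb upstream of Dntt. Among all 145247 regions of the 7 lists, 27.5% held an ETS match, 53.8% an E-box and 9.24% an EBF match in the same 200 bases. Among 32851 promoters the shares were 23.8%, 51.4% and 13.7%. A match is a description of the letters and not a bound site.

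The Rag window held fewer peaks in the pre-proB libraries than in the later ones, by a small margin against Rescue proB. There were 27, 34 and 40 peaks in WT, 28 in Erg KO and 29, 30 and 41 in Rescue. As shares of their lists, the WT counts were 0.028% (interval 0.019% to 0.041%), 0.037% (interval 0.027% to 0.052%) and 0.052% (interval 0.038% to 0.071%). These intervals overlapped. By title, the pre-proB libraries had the fewest peaks, although their lists were the longest. By source name the Rescue counts would run 41, 29 and 30, which turns that order within Rescue. Of the 48 regions, 19 had a peak in all 7 libraries, 21 (43.8%, interval 30.7% to 57.7%) only in proB or preB libraries and 3 only in pre-proB libraries. Over all regions of the genome, 23.5% were found only in proB or preB libraries and 22.5% only in pre-proB libraries. Of the 21 regions, 4 were present in all 4 proB and preB libraries and 10 in a single library.

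**Figure D1:**
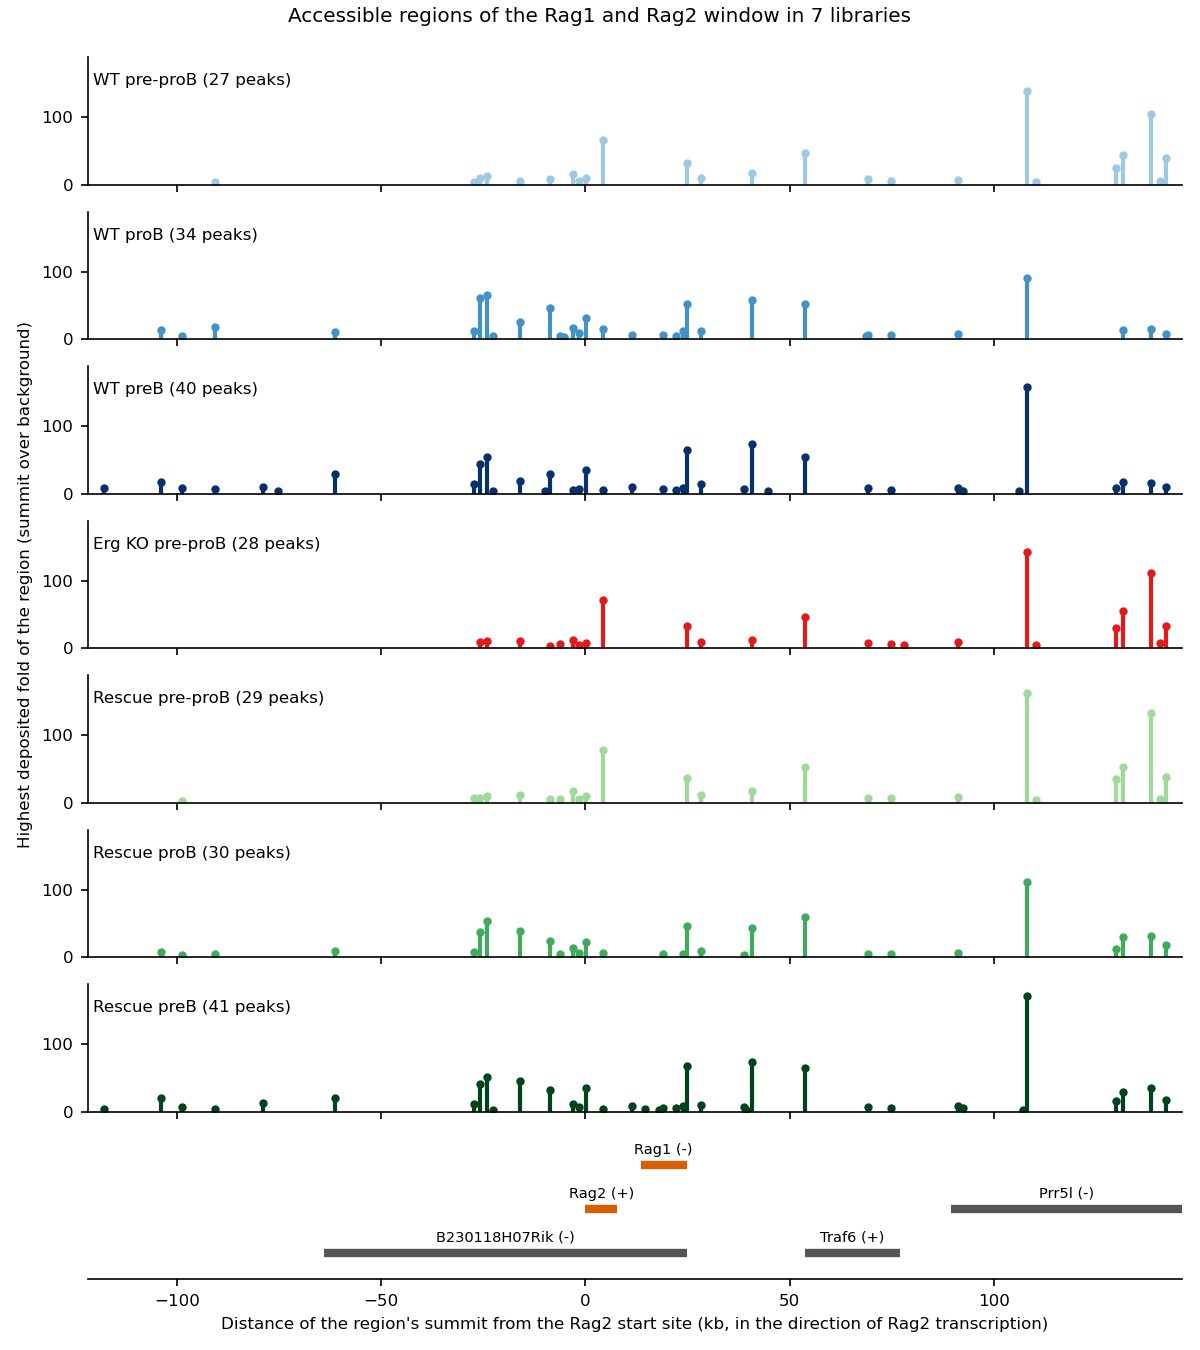
Highest deposited fold (summit pileup over background) of each accessible region in each of the 7 libraries, plotted against the distance of its summit from the Rag2 start site in kb, with the coding genes of the window below and + or - for their strand. The regions 24 and 8.6 kb upstream of Rag2 stand at 13.4 and 7.75 in WT pre-proB and at 65.2 and 45.6 in WT proB, while the region 4.3 kb downstream of the start stands at 65.3 and 14.95.

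The stretch upstream of Rag2, 119 kb long, held more and higher peaks after the pre-proB stage. Its peaks covered 4.09, 10.9 and 11.3 kb in WT, with a mean height of 0.470, 1.38 and 1.14 relative to the median of the regions open in all 7 libraries. In Erg KO and Rescue pre-proB the covered lengths were 4.28 and 4.56 kb at mean heights of 0.467 and 0.435. In Rescue proB and preB they were 9.07 and 10.8 kb at 1.12 and 1.13. Upstream of Rag1, peaks over the same length covered 12.2, 8.80 and 12.7 kb in WT.

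The tallest region between 20 and 25 kb upstream of Rag2, the interval where Erag is known to lie, was at 24 kb (chr2:101599727-101601791), in an intron of B230118H07Rik, a coding gene whose body spans both Rag genes. Its fold was 13.4, 65.2 and 53.7 in WT, 9.89 in Erg KO and 9.83, 53.0 and 52.0 in Rescue. The 3 pre-proB libraries were low, and their intervals (7.43 to 16.9) did not reach those of the 4 later libraries (45.8 to 72.3). The log2 difference of WT proB from WT pre-proB was 2.37 (interval 2.01 to 2.79), that of Rescue proB from Rescue pre-proB 2.61 (interval 2.20 to 3.08). A smaller neighbour at 22.6 kb (chr2:101601887-101602340) had a peak only in WT proB (5.17), WT preB (3.95) and Rescue preB (3.30).

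Other regions upstream of Rag2 were chosen after their values were seen. The region 25.8 kb upstream (chr2:101598264-101599282) was likewise low in every pre-proB library, with a fold of 9.89, 60.2 and 44.3 in WT, 8.61 in Erg KO and 6.97, 37.0 and 40.6 in Rescue. The region 8.6 kb upstream (chr2:101615568-101616608) stood at 7.75, 45.6 and 28.9 in WT, 3.85 in Erg KO and 5.54, 24.5 and 32.8 in Rescue. It peaked at proB in WT, where the step to preB was -0.59 on the log2 scale (interval -0.91 to -0.28). In Rescue the same step was 0.34 (interval -0.02 to 0.71), and the difference between the steps was not tested. The region 16.1 kb upstream (chr2:101608377-101609131) was also lowest at pre-proB within WT and within Rescue. It was higher in the Erg-deficient libraries, which all carry Rag1Cre, than in WT of the same titled stage. The folds were 5.43, 25.3 and 18.6 in WT, 10.4 in Erg KO and 11.6, 39.0 and 45.6 in Rescue.

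Farther out, 4 regions with no pre-proB peak are described first. At 61.4 kb upstream of Rag2 (chr2:101562383-101564370, in B230118H07Rik intron 6) the proB and preB folds were 9.78 and 29.6 in WT and 9.35 and 21.04 in Rescue, and no pre-proB library had a peak. WT preB was higher than WT proB by 1.66 on the log2 scale (interval 1.21 to 2.17). At 104.0 kb upstream (chr2:101520542-101521177, intergenic) they were 14.0 and 16.9 in WT and 8.46 and 20.01 in Rescue. Peaks at 79.0 kb (10.5 and 12.4) and 117.8 kb (7.89 and 4.33) were found in WT preB and Rescue preB only. The lowest summits called held between 10 and 12 fragments, so the lack of a peak does not mean closed chromatin. Other distant regions did have a pre-proB peak, at 90.8 kb in WT (3.88, beside 17.4 and 6.14 later) and at 98.7 kb in Rescue (2.86, beside 3.34 and 6.60 later), the latter chosen after its values were seen.

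Both Rag promoters were open in every library and higher after the pre-proB stage. The Rag2 promoter (chr2:101623859-101625716) had a fold of 9.50, 31.4 and 34.4 in WT, 7.51 in Erg KO and 9.83, 22.1 and 34.7 in Rescue. In Rescue pre-proB its summit lay 607 bp downstream of the start, in the other 6 libraries within 94 bp. The Rag1 promoter (chr2:101649019-101651516) had 32.2, 52.2 and 64.4 in WT, 32.6 in Erg KO and 36.3, 45.7 and 67.9 in Rescue, so it was already high when the Rag2 promoter was low. WT proB exceeded WT pre-proB by 1.81 on the log2 scale at the Rag2 promoter (interval 1.36 to 2.33) and by 0.79 at the Rag1 promoter (interval 0.51 to 1.08). The start of B230118H07Rik lies 31 bp from that of Rag1 on the same strand, so this peak cannot be assigned to Rag1 alone.

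Inside Rag1, a peak in intron 1 (chr2:101648102-101648846) was found in the 4 later libraries only, at 11.4 and 8.77 in WT proB and preB and 4.23 and 8.87 in Rescue proB and preB. A peak in exon 2, which holds the Rag1 coding sequence (chr2:101643237-101644309), was also limited to these 4, at 5.72, 7.23, 4.45 and 6.19. Rescue preB had weak peaks of 4.33 and 3.09 elsewhere in that exon that no other library had. The part of the Cre allele in values over Rag1 was not tested.

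A region inside Rag2 ran opposite to both promoters. It lies in Rag2 intron 2 (chr2:101628002-101629401, 4.3 kb downstream of the start), just before the exon that holds the coding sequence of Rag2, and had a fold of 65.3, 14.95 and 5.48 in WT, 72.0 in Erg KO and 77.9, 6.905 and 3.92 in Rescue. All 3 pre-proB libraries were high and did not overlap the later 4. The log2 difference of proB from pre-proB was -2.04 in WT (interval -2.42 to -1.70) and -3.32 in Rescue (interval -3.95 to -2.83). Its 200 bases held none of the 3 capitalised motifs, and held 2 matches each to the Ikaros pattern TGGGAA and the TCF/LEF pattern CTTTGA, found in 16.0% and 13.5% of all regions.

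Upstream of Rag1, the highest intergenic region (chr2:101665171-101666388, 16.1 kb upstream of the Rag1 start and 40.9 kb downstream of that of Rag2) was higher at each later stage, at 17.4, 57.8 and 73.6 in WT, 12.1 in Erg KO and 17.2, 43.7 and 73.7 in Rescue. It was the only region of the window between the Rag1 promoter and Traf6, a signalling ubiquitin ligase, with a fold above 15. The Traf6 promoter (chr2:101678027-101679770) ranged from 46.4 in Erg KO pre-proB to 65.4 in Rescue preB.

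The tallest peaks of the window lay at the far end, in introns of Prr5l, a gene for a component linked to the mTORC2 kinase. Which gene they act on was not tested. The region in intron 8 (chr2:101732246-101733684) was between 90.3 in WT proB and 172 in Rescue preB. The region in intron 4 (chr2:101761333-101763714) was high in the pre-proB libraries, at 105 in WT, 111 in Erg KO and 133 in Rescue, and lower later, at 15.3 and 15.3 in WT proB and preB and 30.96 and 35.5 in Rescue proB and preB. Weak regions at 110.4 and 140.7 kb, between 3.30 and 7.33, were found in the 3 pre-proB libraries and nowhere else.

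**Figure D2:**
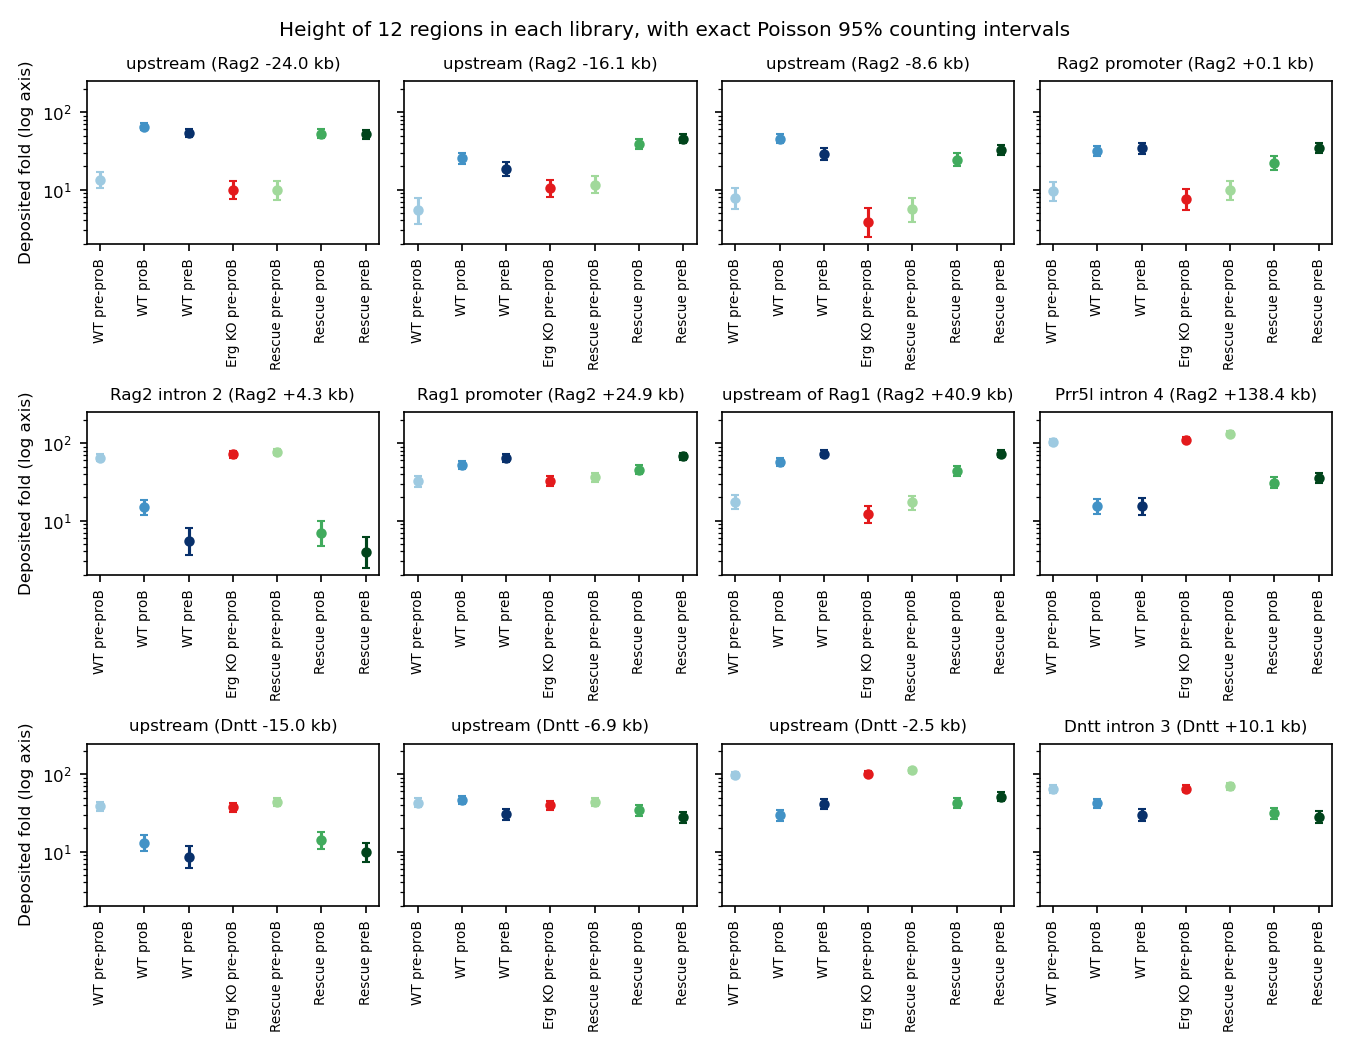
Deposited fold of 12 regions in each of the 7 libraries on a log axis, with points for the single library of each group and bars for the exact Poisson 95% counting interval. The regions 24 kb upstream of Rag2 and 16.1 kb upstream of Rag1 are lowest in the 3 pre-proB libraries (9.83 to 13.4 and 12.1 to 17.4), whereas Rag2 intron 2, Prr5l intron 4 and the regions 15 and 2.5 kb upstream of Dntt are highest there.

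Between WT pre-proB and WT proB, the share of Rag peaks gained was near the whole list's and the share lost was smaller. Of 34 WT proB peaks, 12 had no WT pre-proB partner (35.3%, against 31.9% of the whole list), and of 27 WT pre-proB peaks 4 had no WT proB partner (14.8%, against 34.1%). Of 21 regions with a peak in both, 10 were higher in WT proB beyond counting error and 5 lower, where the genome had 28.1% higher and 26.3% lower. Between WT proB and WT preB, 3 of 34 WT proB peaks lacked a WT preB partner (8.82%, against 26.7%) and 9 of 40 WT preB peaks lacked a WT proB partner (22.5%, against 10.7%). Of 29 regions in both, 5 were higher and 5 lower in WT preB, with a background of 24.7% and 15.9%. B-lineage marker promoters were also higher, with a summed scaled height of 11.4 in WT pre-proB and 40.1 in WT proB. Over the 3 WT stages the sums were 33.3, 24.7 and 40.6 for plasmacytoid dendritic markers and 9.19, 4.41 and 4.02 for myeloid markers. They were 7.39, 6.09 and 3.38 for NK and innate markers and 7.19, 9.82 and 8.18 for T-cell markers. The highest T-cell gene was Gata3, at 51.6, 80.1 and 92.7. The highest plasmacytoid dendritic gene changed with stage, from Siglech (101) in WT pre-proB to Tlr9 (93.8) in WT proB and Spib (174) in WT preB. The part of cell composition in the stage differences was not tested.

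The study asked what loss of Erg changes at the pre-proB stage. Of 27 WT pre-proB peaks in the Rag window, 2 had no Erg KO partner (7.41%, against 6.88% of the whole list), and of 28 Erg KO peaks 3 had no WT partner (10.7%, against 13.6%), so presence was near the background. The WT peaks without a partner lay 90.8 kb (3.88) and 27.3 kb (4.07) upstream of Rag2, close to the lowest folds called, and the latter was present in Rescue pre-proB (6.25). Erg KO peaks without a WT partner included those 6.2 kb upstream of Rag2 (6.23, and 5.72 in Rescue pre-proB) and at 78.1 kb (4.03, in no other library).

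Heights differed at some upstream elements. Of 22 regions with a peak in both, 1 was higher in Erg KO beyond counting error (3.17% of regions in the genome) and 3 were lower (3.11%). The higher one lay 16.1 kb upstream of Rag2, with 10.4 in Erg KO and 5.43 in WT, a log2 difference of 0.89 (interval 0.23 to 1.64) that was at or above 99.6% of all 84912 shared regions. The lower ones were the region 8.6 kb upstream of Rag2 (3.85 and 7.75, log2 difference -1.06, interval -1.95 to -0.28), the region 16.1 kb upstream of Rag1 (12.1 and 17.4, log2 difference -0.58, interval -1.07 to -0.11) and a Prr5l region at 142.1 kb (32.4 and 39.0, log2 difference -0.32, interval -0.62 to -0.02). The last was -0.26 with folds as deposited, where its interval includes no difference. At 24 kb upstream of Rag2 the difference was -0.49, with an interval of -1.04 to 0.05 that includes no difference. The promoters differed by -0.39 for Rag2 (interval -1.04 to 0.24) and by -0.03 for Rag1 (interval -0.35 to 0.28).

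Rescue pre-proB, compared with the same WT library, differed in the same direction at the region 16.1 kb upstream of Rag2 (11.6 and 5.43, log2 difference 0.95, interval 0.31 to 1.68). The region 24 kb upstream of Rag2 differed by -0.60 (interval -1.14 to -0.06), or by -0.44 with folds as deposited, where the interval includes no difference. The region 8.6 kb upstream differed by -0.64 (interval -1.38 to 0.08). In all, 3 of 23 shared regions were higher in Rescue (background 3.85%) and 2 lower (background 3.21%). Of 27 WT peaks, 1 lacked a Rescue partner (3.70%, against 5.88%), and of 29 Rescue peaks 3 lacked a WT partner (10.3%, against 15.6%). Both Erg-deficient pre-proB libraries rest on 1 WT library, so these differences are not independent of each other. The summed scaled promoter height of the B-lineage markers was 11.4 in WT, 9.34 in Erg KO and 9.12 in Rescue pre-proB. Of 10 T-cell markers, 5, 8 and 8 had promoter peaks, with sums of 7.19, 8.18 and 8.40 and no peak at Cd3d or Cd3e in any library. Gata3 was the highest of these genes, at 51.6, 63.9 and 60.9. The sums were 33.3, 34.5 and 34.8 for plasmacytoid dendritic markers and 9.19, 9.37 and 9.77 for myeloid markers. For NK and innate markers they were 7.39, 6.97 and 7.67. The part of these in the height differences was not tested.

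At the proB stage several Rag elements were lower in Rescue than in WT. Of 27 shared regions, 10 were lower in Rescue beyond counting error (background 18.5%) and 5 higher (background 13.4%). The region 24 kb upstream of Rag2 was 53.0 in Rescue and 65.2 in WT (log2 difference -0.36, interval -0.61 to -0.12), that 8.6 kb upstream 24.5 and 45.6 (-0.96, interval -1.31 to -0.64), the Rag2 promoter 22.1 and 31.4 (-0.57, interval -0.95 to -0.21) and the region upstream of Rag1 43.7 and 57.8 (-0.47, interval -0.74 to -0.21). The region 25.8 kb upstream of Rag2 differed by -0.77 (interval -1.05 to -0.50). Of all 69231 regions shared by these libraries, 27.5% had a difference as low as that at 24 kb or lower. The same share was 8.02% for 8.6 kb, 17.7% for the Rag2 promoter, 22.1% for the region upstream of Rag1 and 11.8% for 25.8 kb. Larger differences were found at 90.8 kb upstream of Rag2 (5.35 and 17.4, -1.76, interval -2.53 to -1.14), in Rag1 intron 1 (4.23 and 11.4, -1.50, interval -2.40 to -0.78) and in Rag2 intron 2 (6.905 and 14.95, -1.18, interval -1.86 to -0.59), the last a region that was highest at pre-proB. Here 1.78%, 2.91% and 5.21% of all shared regions were as low or lower, in that order. Of 34 WT proB peaks, 6 lacked a Rescue partner (17.6%, against 20.6%), and of 30 Rescue proB peaks 2 lacked a WT partner (6.67%, against 19.8%). B-lineage marker promoters also had a lower sum in Rescue proB, 30.5 against 40.1 in WT proB.

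Of the differences listed for proB, only that at 25.8 kb upstream of Rag2 remained beyond counting error at the preB stage. The log2 difference of Rescue from WT was -0.25 at 24 kb upstream of Rag2 (interval -0.51 to 0.01), -0.03 at 8.6 kb (interval -0.37 to 0.32), -0.20 at the Rag2 promoter (interval -0.52 to 0.13), -0.21 at the region upstream of Rag1 (interval -0.43 to 0.01) and -0.13 at the Rag1 promoter (interval -0.36 to 0.10), all of which include no difference. The interval also included no difference at 90.8 kb upstream of Rag2 (-0.71, interval -1.64 to 0.16). The same held in Rag1 intron 1 (-0.19, interval -0.85 to 0.48) and in Rag2 intron 2 (-0.69, interval -1.68 to 0.23). Rescue preB was lower at 25.8 kb (-0.33, interval -0.62 to -0.04), or -0.12 with folds as deposited, where the interval includes no difference. It was also lower at 61.4 kb upstream of Rag2 (-0.70, interval -1.09 to -0.32), where the proB difference was -0.13 (interval -0.76 to 0.48). The B-lineage marker sums were 33.1 in Rescue and 40.3 in WT. Of 34 shared regions, 6 were higher in Rescue (background 6.14%) and 4 lower (background 12.1%). Of 40 WT preB peaks, 4 lacked a Rescue partner (10%, against 8.02%), and of 41 Rescue preB peaks 5 lacked a WT partner (12.2%, against 17.9%).

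The region 16.1 kb upstream of Rag2 remained higher in Rescue, by 0.56 at proB (interval 0.23 to 0.90) and 1.08 at preB (interval 0.72 to 1.47) on the log2 scale. These differences were at or above 88.3% of all shared regions at proB and 98.8% at preB. Thus each of the 4 comparisons of an Erg-deficient library with WT gave a higher value there, of which both pre-proB comparisons use 1 WT library. The Prr5l intron 4 region was also higher in Rescue, by 0.95 at proB (interval 0.55 to 1.37) and 1.002 at preB (interval 0.60 to 1.44). Its neighbours at 131.6 and 142.1 kb, chosen after their values were seen, were 29.4 and 18.7 in Rescue proB against 13.3 and 7.94 in WT proB, and 28.9 and 17.1 in Rescue preB against 17.3 and 9.64 in WT preB. The summed myeloid marker height was also higher in Rescue, 6.61 against 4.41 at proB and 5.42 against 4.02 at preB. The highest myeloid gene at preB was Cebpa (34.7) in Rescue and Cebpb (14.9) in WT. NK and innate markers were higher too, 6.62 against 6.09 and 4.58 against 3.38. Plasmacytoid dendritic markers were higher at proB (29.0 against 24.7) and lower at preB (36.5 against 40.6). T-cell markers were lower at both, 9.31 against 9.82 and 7.98 against 8.18. The part of these marker lists in the height differences was not tested.

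**Figure D3:**
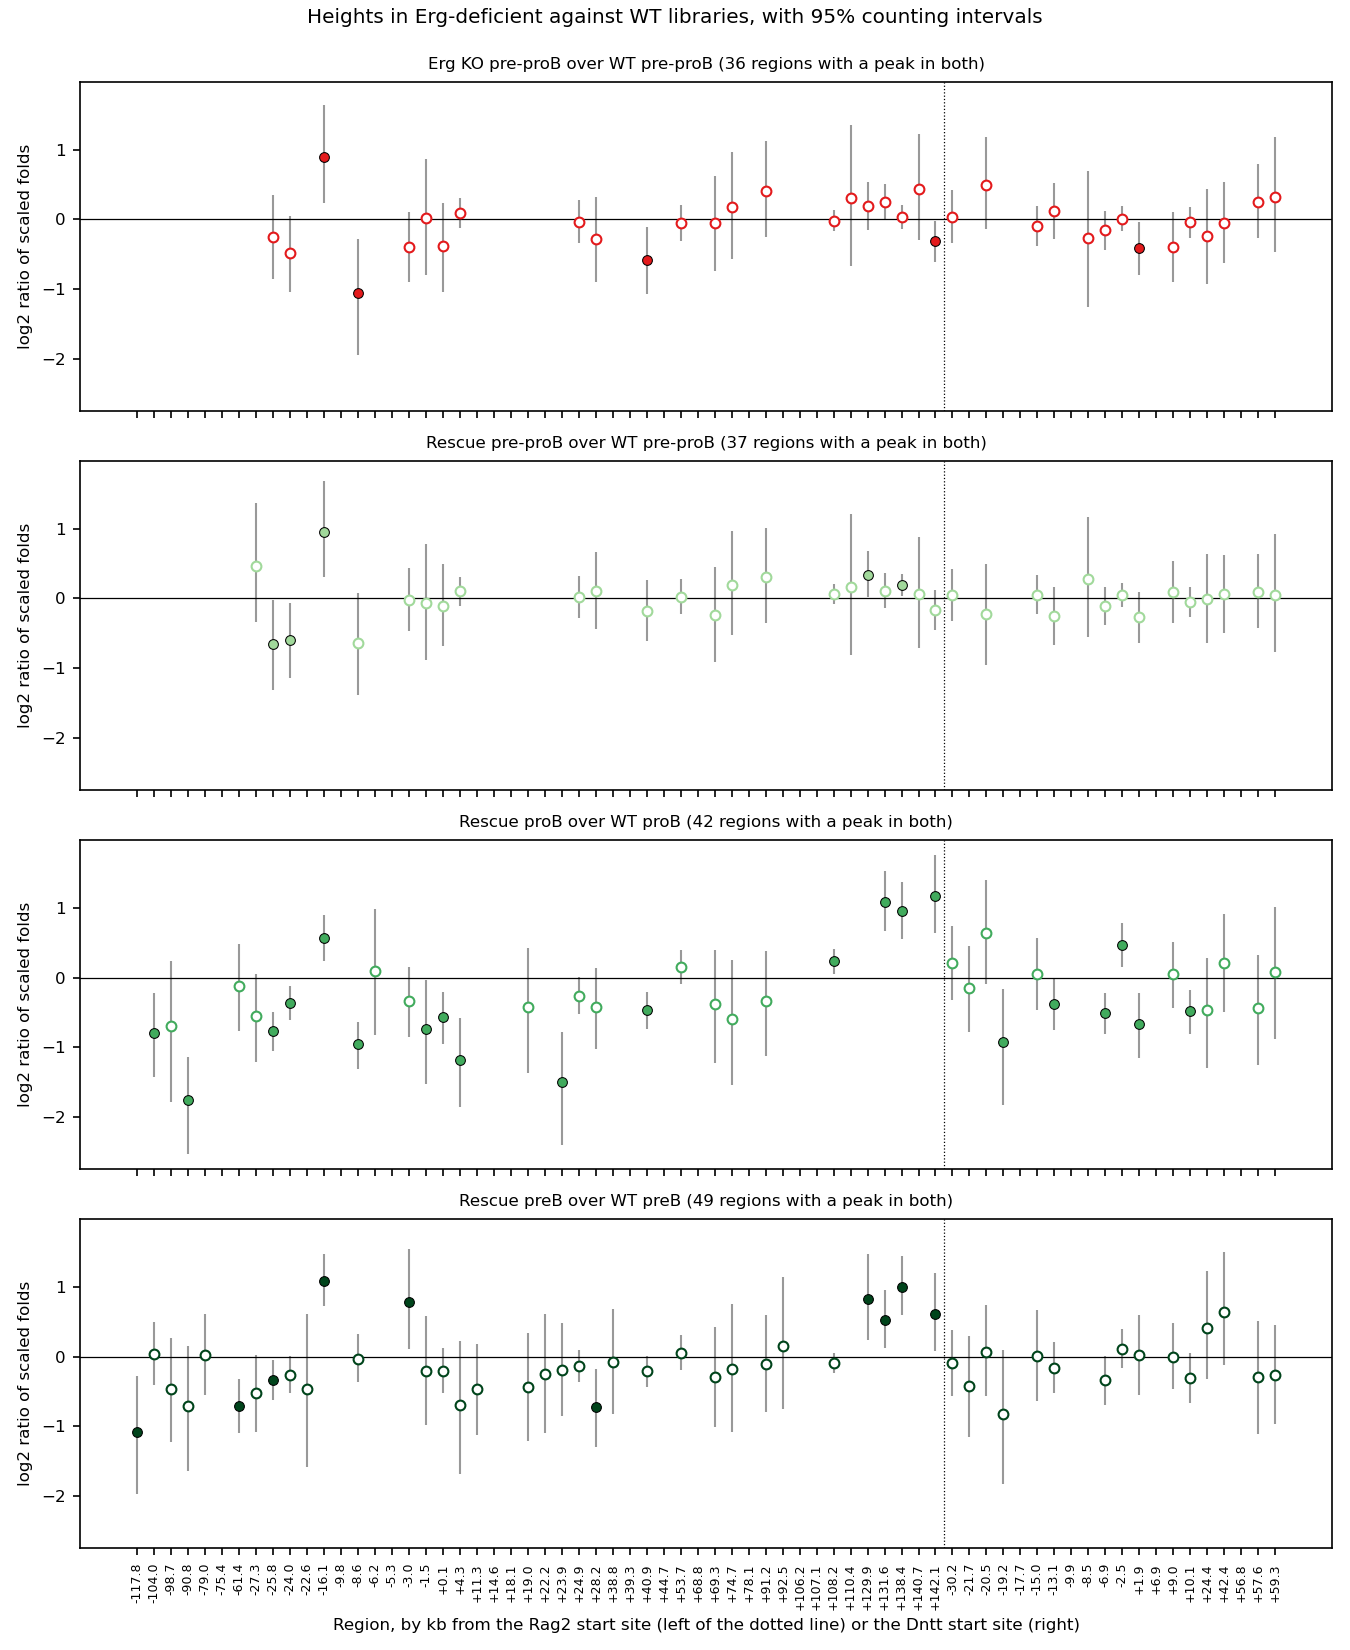
Log2 ratio of scaled folds for each region with a peak in both libraries, Erg KO or Rescue over WT of the same titled stage, in order along the Rag window (left of the dotted line) and the Dntt window (right), labelled by kb from the Rag2 or Dntt start site. Bars are 95% counting intervals and filled points those whose interval excludes 0, among them the region at -16.1, which lies above 0 in all 4 panels (0.89, 0.95, 0.56 and 1.08).

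The Dntt window held similar numbers of peaks in all libraries, 16, 20 and 18 in WT, 18 in Erg KO and 19, 16 and 17 in Rescue. Of its 20 regions, 13 had a peak in all 7 libraries, 5 only in proB or preB libraries (25%, against 23.5% of the genome) and 1 only in pre-proB libraries. Downstream of Dntt (chr19:41029275-41059525, plus strand) lie Opalin, a gene known from myelinating cells, and Tll2, which encodes a protease. Both are on the minus strand.

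The highest region lay 2.5 kb upstream of Dntt (chr19:41025867-41028651) and was highest at the pre-proB stage, with a fold of 97.9, 29.5 and 41.2 in WT, 102 in Erg KO and 113, 42.5 and 51.6 in Rescue. The log2 difference of proB from pre-proB was -1.64 in WT (interval -1.91 to -1.39) and -1.23 in Rescue (interval -1.48 to -1.001). The region 15 kb upstream (chr19:41013644-41014767) was also highest there, at 38.4, 12.9 and 8.55 in WT, 37.2 in Erg KO and 44.1, 14.0 and 9.90 in Rescue. The region in Dntt intron 3 (chr19:41038831-41039881) had 64.7, 42.1 and 30.03 in WT, 65.05 in Erg KO and 69.5, 31.4 and 28.1 in Rescue.

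Other regions of the window took different courses. The region 6.9 kb upstream (chr19:41021725-41022995) was 42.6, 46.7 and 30.2 in WT, 39.6 in Erg KO and 44.0, 34.3 and 27.6 in Rescue, and preB differed from proB by -0.56 in WT (interval -0.88 to -0.26) and by -0.39 in Rescue (interval -0.74 to -0.05). The region 13.1 kb upstream (chr19:41015858-41016856) was higher in the later libraries, at 19.4, 29.4 and 27.0 in WT, 21.8 in Erg KO and 18.05, 23.6 and 27.9 in Rescue. Regions 21.7 and 19.2 kb upstream had peaks in the 4 later libraries only, with folds between 3.71 and 9.97.

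**Figure D4:**
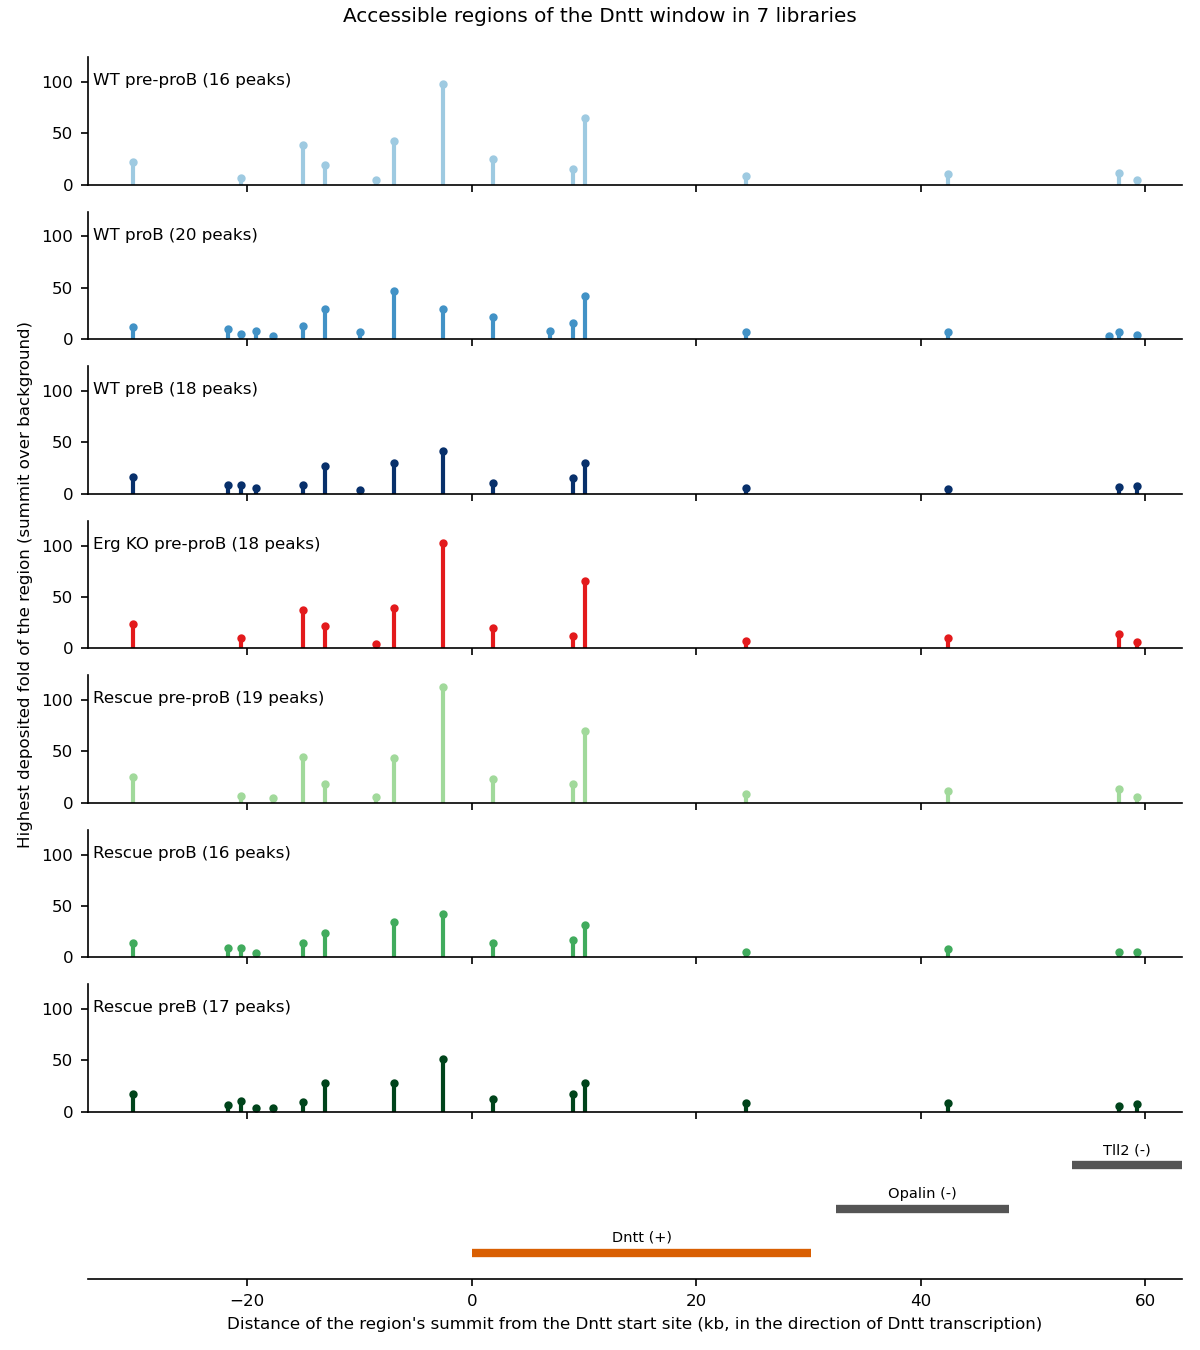
Highest deposited fold of each accessible region of the Dntt window in each of the 7 libraries, by distance of its summit from the Dntt start site in kb, with the coding genes below and + or - for their strand. The region 2.5 kb upstream stands between 97.9 and 113 in the 3 pre-proB libraries and between 29.5 and 51.6 in the other 4.

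The Dntt start site itself was weakly open. A peak covered it in 5 of the 7 libraries. Its fold was 9.16 in Erg KO, 9.47 and 4.45 in Rescue pre-proB and proB and 3.32 in WT proB, with summits within 92 bp of the start, and neither preB library had a peak over it. In WT pre-proB the start was covered by 1 broad peak of fold 25.01 whose summit lay 1931 bp downstream in intron 1, so the height at the start is not known for that library. The merged region at 1.9 kb, with its summit in intron 1 (chr19:41028766-41032236), was 25.01, 21.4 and 10.7 in WT, 19.4 in Erg KO and 23.1, 14.0 and 12.6 in Rescue.

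At pre-proB, each of the 16 WT peaks of the Dntt window overlapped an Erg KO peak (6.88% of the whole list had no partner) and each of the 18 Erg KO peaks a WT peak (13.6% of the whole list had none), so few or no unpartnered peaks are also what the whole lists would give. The 2.5 kb region differed by 0.01 on the log2 scale (interval -0.17 to 0.19). Of 14 shared regions, 0 were higher (3.17% of all regions) and 1 lower (3.11%) in Erg KO, the region at 1.9 kb (log2 difference -0.42, interval -0.80 to -0.03, and -0.36 with folds as deposited, where the interval includes no difference). All 16 WT peaks also had a Rescue pre-proB partner (5.88% of the whole list without), and 2 of 19 Rescue peaks had no WT partner (10.5%, against 15.6%). Of 14 shared regions, 0 differed beyond counting error (3.85% higher and 3.21% lower over all regions). At proB, 1 of 15 shared regions was higher in Rescue (13.4% of all regions), the 2.5 kb region (log2 difference 0.46, interval 0.15 to 0.78), and 5 were lower (18.5%). At preB 0 of 15 differed beyond counting error (6.14% higher and 12.1% lower over all regions), and 2 of 18 WT preB peaks had no Rescue partner (11.1%, against 8.02%).

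A list of 15 genes of the recombination pathway was also examined, not all of which join the cut ends. It includes Hmgb1, Hmgb2, Atm, Trp53bp1 and Parp1. Most of their promoters had a peak, as did 13473 to 14378 of all 21938 coding genes per library. Of the 15 genes of this list, which also holds Xrcc5 and Xrcc6 (the Ku subunits), Prkdc, Dclre1c (Artemis), Lig4 and Xrcc4, 14 had a promoter peak in every library. Nhej1 had none within 1000 bp of an annotated start. Their summed scaled height was 93.9, 97.5 and 112 in WT, 92.3 in Erg KO and 90.7, 98.5 and 105 in Rescue. Of 14 regulators linked to the Rag and Dntt genes, 13 had a promoter peak in every library. The exception was Pax5, the B-lineage commitment factor, with 3.68, 28.1 and 40.3 in WT. The later Rescue libraries stood at 29.8 (proB) and 45.8 (preB). Within 1000 bp of a start, neither Erg KO nor Rescue pre-proB had a Pax5 peak. Within 2500 bp, all 14 regulators had a peak in Erg KO, and only Pax5 lacked one in Rescue pre-proB. The WT pre-proB value of 3.68 was close to the lowest fold called in that library, 2.52. A missing peak here therefore does not show a closed promoter. The paper describes the Pax5 locus as still open in Erg KO pre-proB cells.

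The genes whose promoter heights were most like those of each member over the 7 libraries were, for Rag1, Tgif1, 2610318N02Rik and Stx17, with root mean square differences of 0.07, 0.10 and 0.11 on the log2 scale. For Rag2 they were Zfp354b, D13Ertd608e and B3gnt5, with 0.17, 0.18 and 0.19. For Dntt they were P2ry6, Hrh4 and Aox4, with 0.42, 0.43 and 0.45, and rest on the WT pre-proB value of 25.01 described above.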

How the data were processed

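ATAC-seq peak lists of 7 libraries, 1 per group, were analysed. Per the study's methods and the submitters' processing notes, reads were aligned to mm10 with Bowtie2 and peaks were called per library with MACS2. CASAVA 1.8.2 and Picard are also named (other versions and options: not given in the sources used here). Fragmentation is described as sonication in the methods and as Tn5 in the labels. The score deposited by the authors was 10 times the −log10 q of the summit, cut to a whole number. The fold deposited by the authors was the ratio of summit pileup plus 1 to a library-wide background plus 1. The −log10 q and summit offsets were also deposited by the authors.

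Peaks sharing at least 1 bp were merged into regions, and the highest fold per library was kept. Pileups recovered from the folds (100% whole within 0.02 of a step) gave Poisson intervals for folds and binomial intervals for ratios. Shares carry Wilson 95% intervals. A height was called different where the interval of the scaled ratio excluded 0 on the log2 scale. Intervals of folds and ratios cover counting error only, and those of shares treat peaks or regions as independent draws. Promoter peaks lay within 1000 bp of a GENCODE M21 start. Scripts used Python 3.11.15, pandas 2.3.3 and scipy 1.17.1 and were tested on simulated data. Members and gene lists were chosen with earlier results of these data known. Named regions were those at member promoters or 20 to 25 kb upstream of Rag2, the 5 highest of each window, those in only 1 of WT and Erg KO pre-proB, and those in WT proB or preB but no pre-proB library or the reverse. Others named were chosen after their values were seen. Stages followed sample titles.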

Additional observations from a re-analysis of the deposited data

How the results depend on the processing

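With flanks of 60 kb and 15 kb, peak numbers in the Rag window were 17 and 25 for WT pre-proB and preB, 18 for Erg KO, and 18 and 27 for Rescue pre-proB and preB. The Dntt window then held 12 in WT proB, 11 in WT preB, 10 in Rescue proB and 10 in Rescue preB. With a −log10 q of at least 10, partner shares in the Rag window became 100% for WT pre-proB in Erg KO, for WT pre-proB in Rescue pre-proB, for WT proB in WT preB and for WT preB in Rescue preB, 87.9% for WT preB in WT proB and 96.8% for Rescue preB in WT preB. In the Dntt window they became 100% for WT pre-proB in WT proB, WT preB in WT proB and both directions between WT preB and Rescue preB, and 93.8% for WT proB in WT preB. With an overlap of 50% of the longer peak, shares were 55.6% for WT pre-proB in WT proB, 44.1% in reverse, 76.5% for WT proB in WT preB and 76.7% for Rescue proB in WT proB in the Rag window, and 72.2% for Erg KO in WT pre-proB in the Dntt window. With lists of equal length, Dntt shares were 100% for WT pre-proB in WT proB and 94.1% for WT proB in WT preB. With stages from source names, Rescue had 41, 29 and 30 peaks in the Rag window at pre-proB, proB and preB, so the order by stage was lost, and Rag shares were 56.1% for Rescue pre-proB in WT pre-proB, 72.5% for WT preB in Rescue preB and 96.7% in reverse. Of 147 log2 height differences, 14 changed sign with unscaled folds and 18 with percentiles of the score, 0 of them among the 65 whose interval excluded no difference. Unscaled, the Rag1 promoter in Erg KO against WT went from -0.03 to 0.02, and in Rescue preB against WT preB the 8.6 kb region went to 0.18, the Rag2 promoter to 0.01 and the Rag1 promoter to 0.07. With unscaled folds, 2 differences left their interval, both at Prr5l intron 8. The cause of these shifts was not tested. No paired analysis was possible because each group has 1 library. Depth limits what a missing peak shows, since the lowest called summits held 10 to 12 fragments.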

Other observations

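Over the 200 bases at each summit, the RUNX pattern TGTGGTT was found in 9 of 48 regions of the Rag window (18.8%), 0 of 20 of the Dntt window and 10.8% of all regions. The E-box CANCTG was found in 26 of 48 and 16 of 20 regions, and in 53.8% of all. The ETS pattern GGAAGT was found in 11 of 48 and 5 of 20, and in 27.5% of all. Patterns were searched on both strands, and no test was run.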
